A study of Gallus gallus and Anas platyrhynchos and Coturnix japonica with 43 samples.

Results

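The intracellular fatty acid binding proteins measured here were 5 genes, FABP1, FABP3, FABP4, LBFABP and RBP7, chosen by the gene symbol of the array annotation. They were read by 6 spots of an array of 19200 spots and were 5 of the 6428 genes that could be named on it. FABP4 had 2 cDNA clones, and each of the other genes had 1 clone on 1 spot. All 5 symbols were present, and all had a value on every one of the 43 arrays.

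The arrays were spotted chicken cDNA arrays. Each was hybridised with the RNA of a tissue sample, labelled with Cy3, and with a Cy5-labelled reference pool. The pool held RNA from the 4 chicken tissues studied, liver, fat, muscle and hypothalamus. It was made fresh for each set of hybridisations, so a difference between pools may enter comparisons of groups. Chicken liver, breast muscle and abdominal fat came from broiler cockerels of 6 weeks, a Ross by Cobb cross, with 4 arrays for each tissue. Chicken hypothalamus came from males of a line selected for low abdominal fat, at 9 weeks, with 4 arrays. The comparison of hypothalamus with the other chicken tissues therefore also holds a difference of line and age. Muscle and fat RNA were purified on CsCl gradients and the other RNA on columns. Comparisons of muscle or fat with liver or hypothalamus therefore also hold a difference of RNA purification. Liver of White turkey, Japanese quail and duck was measured on 4 arrays for each bird, and hypothalamus of the same birds on 3 arrays each. Liver of American kestrel and of Tree sparrow, both from captive colonies, was measured on 3 arrays for each bird. The sources name no age or sex for the birds other than chicken. Nor do they say whether arrays of a group came from separate birds, so the p-values measure the spread between these arrays, which may be technical.

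Fatty acids and other hydrophobic ligands are poorly soluble in water and are carried through the cytoplasm by small proteins that fold into a beta barrel with the ligand inside. Members of this family differ in ligand and in the tissue that uses them. FABP1 is the liver-type carrier of long-chain fatty acids, FABP3 the heart-type carrier of muscle that burns fat, and FABP4 the carrier of adipocytes. LBFABP, the liver basic fatty acid binding protein also listed as FABP10 and L-BABP, binds bile acids in the liver of birds and fishes. RBP7 belongs to the same fold family and binds retinol.

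Values below are log2 ratios of a sample to the pool, with the median of each array set to 0, given as mean ± SD over arrays, and differences are differences of these log2 ratios. A spot can be read against the pool only for its own gene, so the level of a gene was compared between groups and never with the level of another gene. With equal parts of the 4 tissues, a gene whose RNA lay in only 1 of them would read a log2 ratio of 2 in that tissue. A difference was called at an adjusted p under 0.05, from limma with Benjamini-Hochberg adjustment over the 6428 genes of each contrast. Arrays of the same group correlated weakly over genes, with a median Pearson correlation of 0.300 over 57 pairs. Markers of the labelled tissue lay above 0 in every chicken liver array and in the group medians of chicken hypothalamus, muscle and fat. On 4 arrays the skeletal muscle or neuron list went against the label. The skeletal muscle list, a median over 7 genes, read -1.75 on chicken muscle replicate 4 against 1.03 to 1.47 on the other 3 muscle arrays. The same list read 1.58 on Tree sparrow liver replicate 1, against -1.39 and -2.09 on the other 2 sparrow arrays. The neuron list read -0.50 on duck hypothalamus replicate 3, against 0.98 and 0.58 on the others. It read 0.17 on quail liver replicate 2, against -0.85, -1.89 and -1.23 on the other 3 quail liver arrays. The first 3 of these arrays are called doubtful below and were left out together, and quail liver replicate 2 was left out alone.

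LBFABP was the only member called higher in chicken liver than in the other chicken tissues. Its log2 ratio in chicken liver was 0.48, 0.18, 0.79 and 2.25 over replicates 1 to 4. It was -2.21, -1.09, -2.98 and -3.23 in hypothalamus, -3.25, -3.61, -1.50 and -2.02 in breast muscle, and -2.56, -2.92, -2.42 and -1.22 in abdominal fat. All 4 liver arrays lay above all 12 arrays of the other tissues, and liver was the only chicken tissue with values above 0. The mean in liver, 0.92 ± 0.92 (SD, n = 4), exceeded the mean of the other 3 tissues by 3.34 on the log2 scale (SE 0.44), a fold of 10.1, with a limma adjusted p of 2.02e-06. This was the third largest excess in liver among the 6428 genes. Of all genes, 1.99% were called in this contrast, and 1.48% had every liver array above every other array. Liver exceeded hypothalamus by 3.30, muscle by 3.52 and fat by 3.21, with limma adjusted p of 0.000207, 6.39e-05 and 0.000184. In these pairs 1.51%, 1.73% and 2.4% of all genes were called, and 3.48%, 3.52% and 3.3% had liver wholly above the other tissue. Without the 3 doubtful arrays the excess over muscle was 3.71. The exact two-sided permutation test gave 0.0286 for each of the 3 pairs, the smallest value that 4 against 4 arrays allow. Among the non-liver tissues LBFABP was not separated, with means of -2.38 ± 0.96 in hypothalamus, -2.59 ± 1.0 in muscle and -2.28 ± 0.73 in fat (SD, n = 4 each). In bulk tissue, fewer cells of a type and less RNA per cell cannot be told apart, here or in any comparison below.

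**Figure D1:**
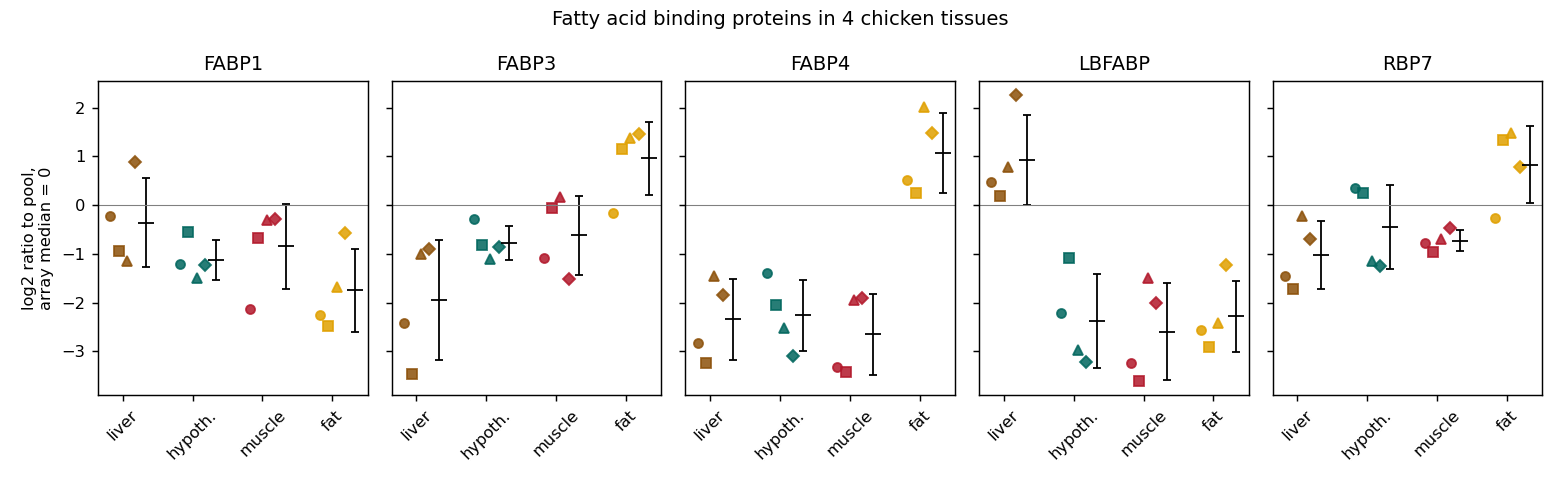
Log2 ratio to the pool of the 5 genes in 4 chicken tissues; each point is an array (circle, square, triangle and diamond for replicates 1 to 4), and the bar beside the points is the mean with 1 SD. LBFABP is above 0 in liver alone, FABP4 in fat alone, and FABP3 and RBP7 have their highest means in fat.

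The high reading of LBFABP in liver held in turkey and not in every bird. Turkey liver read 0.37, 1.33, 0.93 and 0.94, and turkey hypothalamus -1.58, -2.79 and -1.75, so the tissues did not overlap. Turkey liver exceeded turkey hypothalamus by 2.93 (SE 0.58, limma adjusted p = 0.00342), where 0.685% of all genes were called. Of all genes 2.69% had turkey liver wholly above turkey hypothalamus. The exact permutation p was 0.0571, the smallest that 4 against 3 arrays allow. This call was lost without turkey hypothalamus replicate 2, with a limma adjusted p of 0.0918. Turkey liver, at 0.89 ± 0.40 (SD, n = 4), differed from chicken liver by -0.03, with a 95% interval from -1.11 to 1.05 and 0.0467% of all genes called, so a difference of up to about a log2 unit either way lay within the error.

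Quail liver was the most uneven group for LBFABP. Its 4 arrays read -0.42, -1.78, 1.14 and 0.78, and the lowest of them lay among the quail hypothalamus arrays, which read -1.76, -1.71 and -2.74. Quail liver exceeded quail hypothalamus by 2.00 (SE 0.58), which was not called, with a limma adjusted p of 0.129 where 0.56% of all genes were called. Without quail liver replicate 2 the difference was 2.57 and was called, with a limma adjusted p of 0.0214. On that array the hepatocyte list, a median over 9 plasma protein genes such as albumin (ALB) and transthyretin (TTR), read 0.86, the highest of the 4 quail liver arrays, which spanned -0.01 to 0.86. Lists of other cell types were also highest on it. Beside the neuron list, the glia list read 0.19 against -1.21 to -0.55, the erythrocyte list 1.39 against 0.13 to 0.54, and the adipocyte list 0.21 against -0.80 to -0.41 on the other 3 arrays. Their part in the low LBFABP reading was not tested.

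In duck, kestrel and sparrow the chicken LBFABP clone read low in liver. Duck liver read -1.47, -1.96, -1.70 and -1.16, kestrel liver -1.86, -2.81 and -1.36, and sparrow liver -2.38, -3.31 and -2.73. Every one of these 10 arrays lay below every chicken liver array and every turkey liver array. Duck liver fell by 2.50 against chicken liver (limma adjusted p = 0.0115), kestrel liver fell by 2.93 (0.00438) and sparrow liver fell by 3.73 (0.000176). Over all genes 0.762%, 1.21% and 0.793% were called in these contrasts, and of the 49 genes called for duck and the 51 for sparrow 0 were higher than in chicken, while 2 of 78 were higher for kestrel. Of all genes 4.15% lay wholly below chicken liver in duck, 5.76% in kestrel and 4.25% in sparrow. Without replicate 1 sparrow liver fell by 3.95. The duck call was lost without chicken liver replicate 4 or without duck liver replicate 3, and the kestrel call without kestrel liver replicate 2. The clones are chicken cDNA, so a poorer match of the other bird's RNA to the clone and a lower level of that RNA cannot be told apart.

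Within duck, where liver and hypothalamus meet the same clone, liver exceeded hypothalamus by 0.48 (SE 0.58), with a 95% interval from -0.69 to 1.65 and a limma adjusted p of 0.966. The excess was 0.31 without the 3 doubtful arrays. Duck hypothalamus read -1.21, -2.55 and -2.40, and overlapped duck liver. In this contrast limma called 0 of 6428 genes, and 347, or 5.4%, passed an unadjusted p under 0.05. The difference between liver and hypothalamus was smaller in duck than in chicken by 2.82 (SE 0.79), with an unadjusted p of 0.000915 and a limma adjusted p of 0.456, so the birds were not shown to differ. Without duck hypothalamus replicate 3 it was smaller by 2.99. The same test gave -0.37 for turkey and -1.30 for quail, with limma adjusted p of 0.9996 and 0.932. Of all genes 0.0311% were called in this test for duck, 0% for turkey and 0.0156% for quail, and the contrasts share the chicken arrays. Quail liver and chicken liver differed by -1.0 (limma adjusted p = 0.555), where 0.513% of all genes were called. Without quail liver replicate 2 these quail values were -0.43 against chicken liver and -0.73 for the difference between the birds.

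The hepatocyte list moved broadly with LBFABP between the livers as groups, though not array by array. Its array medians ran from 0.50 to 0.94 in chicken, from -0.20 to 0.68 in turkey, from -0.01 to 0.86 in quail, from -0.75 to 0.11 in duck, from -1.61 to -0.89 in kestrel and from -1.74 to -0.94 in sparrow. Against chicken liver, 4 of its 9 genes were called lower in duck, 6 in kestrel and 4 in sparrow, with median differences of -1.50, -2.08 and -2.0. For turkey and quail limma called 0 of 9, with 2 and 1 at an unadjusted p under 0.05 and medians of -0.33 and -0.24. That unadjusted threshold was passed by 5.16% of all genes for turkey and 9.75% for quail. Liver exceeded hypothalamus for 6 of 9 of these genes in chicken, 3 in turkey, 2 in quail and 0 in duck by limma, where 1 passed an unadjusted p under 0.05. The median differences were 2.12, 1.54, 1.55 and 0.70. Within groups, quail liver replicate 2 had the highest list value and the lowest LBFABP. So did turkey liver replicate 1, at 0.68 for the list and 0.37 for LBFABP. The same held for duck liver replicate 2, at 0.11 and -1.96, and sparrow liver replicate 2, at -0.94 and -3.31. In chicken liver and in kestrel liver, replicate 2 instead had the lowest value of both. Sparrow liver had a higher list median than kestrel liver, -1.43 against -1.59, and a lower mean LBFABP. The list is read by chicken clones too. Between birds a poorer match of RNA to these clones and a lower level of that RNA cannot be told apart, so the list does not measure hepatocyte content there. What part the hepatocyte content of the samples had in the LBFABP readings was not tested.

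**Figure D2:**
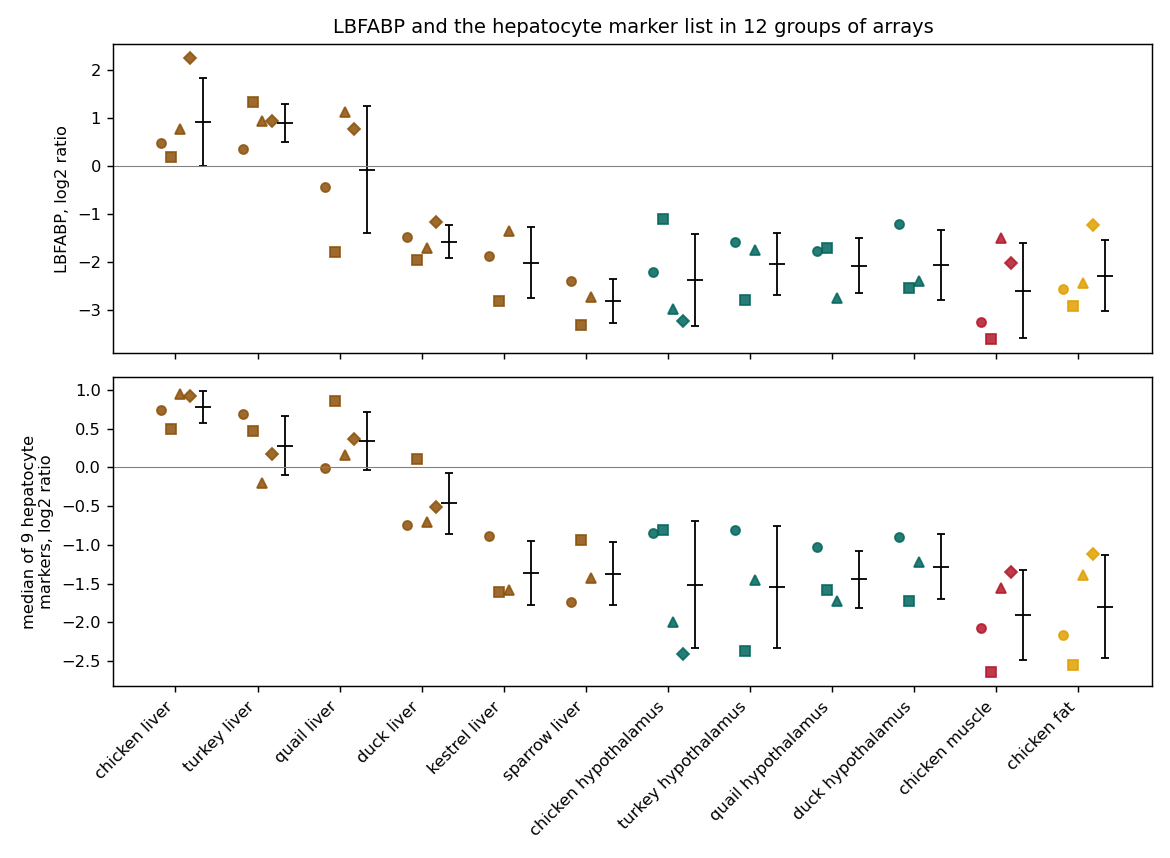
Log2 ratio of LBFABP (top) and the array median of 9 hepatocyte markers (bottom) in the 12 groups; points are arrays, with symbols for replicates as in the plot of chicken tissues and colours for tissues, and bars are the mean with 1 SD. Among the livers, both are lower as groups in duck than in chicken, turkey and quail, and lowest in kestrel and sparrow. LBFABP overlaps the hypothalamus arrays in duck, kestrel and sparrow liver and on quail liver replicate 2. The list overlaps them in kestrel and sparrow liver.

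Ordered by mean, LBFABP ran from chicken liver and turkey liver to quail liver at -0.07 ± 1.32, duck liver at -1.57 ± 0.34 and kestrel liver at -2.01 ± 0.74. The 4 hypothalamus groups, chicken fat and chicken muscle followed between -2.04 and -2.59, and sparrow liver was last at -2.81 ± 0.47. Each group overlapped its neighbour in this order. The largest step, 1.50 from quail liver to duck liver, overlapped through quail liver replicate 2 alone. Of the 15 pairs of livers, 8 did not overlap, where 5.62% of such pairs over all genes did not. By exact permutation tests adjusted over the 15 pairs the lowest p was 0.107. With so few arrays in a group no pair could have passed, even wholly apart, so this test decides nothing.

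FABP1, the liver-type carrier of mammals, showed no tissue that passed the test. Chicken liver read -0.22, -0.94, -1.15 and 0.89, hypothalamus -1.21, -0.55, -1.50 and -1.23, muscle -2.13, -0.67, -0.30 and -0.29, and fat -2.25, -2.49, -1.68 and -0.58. Liver had the highest mean in chicken, -0.36 ± 0.92, and its arrays overlapped those of each other tissue. The excess of liver over the other 3 tissues was 0.88 (SE 0.42), with a 95% interval from 0.04 to 1.73 and a limma adjusted p of 0.700. The largest pair was liver over fat, at 1.39, with a limma adjusted p of 0.244.

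Across the birds FABP1 had its highest mean in quail liver. That tissue read -0.27, -0.35, 0.71 and -0.17, and all 4 arrays lay above the quail hypothalamus arrays at -0.76, -1.38 and -2.03. The difference was 1.37 with an exact permutation p of 0.0571 and a limma adjusted p of 0.406, so it was not called, and without quail liver replicate 2 it was 1.48. Of all genes, 3.9% had quail liver wholly above quail hypothalamus. Turkey liver ranged from -2.46 to -0.02, duck liver from -2.21 to -0.69, kestrel liver from -2.52 to -0.90 and sparrow liver from -2.66 to -0.89. Limma called 0 of the 24 contrasts for FABP1. An unadjusted p under 0.05 was reached in 7 of them, against 6.62% of the differences of all genes, and contrasts that share arrays are not independent. Over the 43 arrays FABP1 and LBFABP had a Pearson correlation of 0.52. This is a description over arrays that share groups and have reference pools of the same tissues.

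FABP4, the fatty acid carrier of adipocytes, read highest in abdominal fat among the chicken tissues, as did RBP7 and FABP3 with smaller excesses. Fat read 0.52, 0.26, 2.02 and 1.49. Liver read -2.83, -3.23, -1.46 and -1.84, hypothalamus -1.39, -2.04, -2.53 and -3.10, and muscle -3.33, -3.41, -1.94 and -1.91. Every fat array lay above 0 and above all 12 arrays of the other chicken tissues, of which the highest read -1.39. The mean in fat, 1.07 ± 0.82 (SD, n = 4), exceeded the mean of the other 3 tissues by 3.49 (SE 0.38), a fold of 11.2, with a limma adjusted p of 2.35e-07. No other of the 6428 genes had a larger excess in fat, where 1.24% of genes were called and 0.98% had every fat array above the rest. The difference from fat was -3.41 for liver, -3.33 for hypothalamus and -3.72 for muscle, with limma adjusted p of 7.87e-06, 0.000106 and 8.19e-06. No pair overlapped, and 2.91%, 3.14% and 3.52% of all genes lay wholly below fat in the same way. Hypothalamus minus fat called 0.856% of genes and muscle minus fat 1.15%. Without the 3 doubtful arrays muscle minus fat was -3.97.

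The pair of FABP4 clones is a check on the reading from separate spots of the same arrays. In fat the first clone read 0.11, 0.76, 1.57 and 1.50 and the second 0.94, -0.25, 2.47 and 1.47. The excess of fat over the other 3 tissues was 3.19 (SE 0.41) by the first clone and 3.79 (SE 0.44) by the second, and both were called in a fit of all clones. Over the 43 arrays the clones had a Pearson correlation of 0.83. On the same array they differed by a median of 0.78 and by up to 2.68, with the first clone higher by 0.60 on average. A constant offset would drop out of differences between groups, but the gap varied around 0.60 with an SD of 0.76 and was unlike between groups. Duck liver minus duck hypothalamus was -1.10 by the first clone and -0.19 by the second. Kestrel minus chicken liver was 0.05 by the first and -0.88 by the second. None of these was called, and the values of FABP4 given for the gene are means of both clones.

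**Figure D3:**
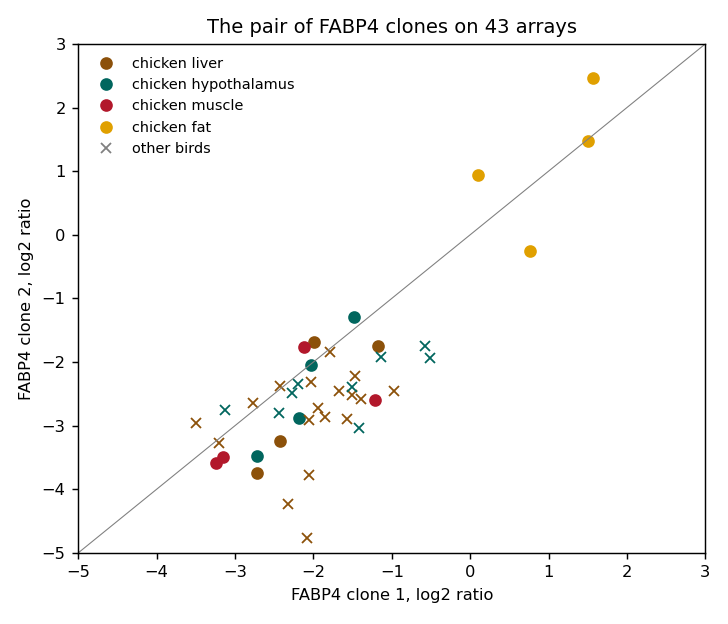
Log2 ratio of FABP4 clone 2 against clone 1 on the 43 arrays, with chicken tissues in colour and other birds as crosses (liver and hypothalamus in the colours of the chicken tissues); the line marks equal values. The 4 chicken fat arrays stand apart from all others by both clones, and most other arrays lie below the line.

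FABP4 was low in every group other than chicken fat. The other 11 groups had means from -2.76 in kestrel liver to -1.78 in duck hypothalamus, and each overlapped its neighbour in the order of means. The step from chicken fat to duck hypothalamus was 2.86, with the lowest fat array at 0.26 and the highest duck hypothalamus array at -1.17. Fat was measured in chicken alone, so whether FABP4 reads high in the fat of the other birds was not measured. Liver and hypothalamus were not separated for FABP4 in any bird. The differences were -0.08 in chicken, -0.30 in turkey, -0.35 in quail and -0.64 in duck, each with a 95% interval that included 0. The duck value was -0.33 without the 3 doubtful arrays, and the quail value -0.05 without quail liver replicate 2. Muscle was not separated from liver or hypothalamus either, with liver minus muscle at 0.31 and hypothalamus minus muscle at 0.39 (limma adjusted p = 0.9994 and 0.812). Against the mean of the other 3 chicken tissues, which includes fat, the difference was -1.06 in liver and -0.96 in hypothalamus, not called. In muscle it was -1.47 (limma adjusted p = 0.0656), which was called without muscle replicate 4 and the other 2 doubtful arrays, at -1.72 with a limma adjusted p of 0.0245. It was also called with the replicate number as a block, with a limma adjusted p of 0.0444.

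RBP7, a retinol carrier described in the fat and endothelium of mammals, also had its highest chicken mean in fat, with a smaller excess. Fat read -0.26, 1.33, 1.48 and 0.79, and liver -1.44, -1.73, -0.22 and -0.70. Hypothalamus read 0.35, 0.25, -1.14 and -1.24, and muscle -0.78, -0.97, -0.70 and -0.46. The lowest fat array lay within the range of hypothalamus and just below the highest liver array. Fat exceeded the mean of the other 3 tissues by 1.57 (SE 0.41), a fold of 2.96, with a limma adjusted p of 0.0405. Liver minus fat was -1.86 (limma adjusted p = 0.0304), with an exact permutation p of 0.0571. Of all genes 1.24% were called in the first of these contrasts and 2.4% in the second. Muscle minus fat was -1.56 and hypothalamus minus fat -1.28, which were not called, with limma adjusted p of 0.166 and 0.455. Muscle lay wholly below fat (exact permutation p = 0.0286), as did 3.52% of all genes. Both calls depended on single arrays. The first was lost on leaving out any of 9 of the 16 chicken arrays and without the 3 doubtful arrays, at 1.60 and a limma adjusted p of 0.0503. The second was lost on leaving out any of 5 of the 8 arrays.

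In the other birds the group means of RBP7 ran from -0.72 ± 0.94 in kestrel liver to 0.36 ± 0.34 in quail hypothalamus. Quail liver held both the highest single reading of RBP7 and low ones, at 1.91, -0.33, -1.18 and -1.01. Its difference from quail hypothalamus was -0.51, and -0.46 without replicate 2. Duck liver, at 0.30, -0.22, -0.05 and 0.27, and turkey liver, at 0.35, 0.56, 0.30 and -0.36, had higher means than chicken liver by 1.10 and 1.23, neither of which was called, with limma adjusted p of 0.559 and 0.806. Neighbours in the order of the 12 means of RBP7 overlapped throughout.

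FABP3, the carrier named for heart and oxidative muscle, had its highest chicken mean in abdominal fat and its lowest in liver. Fat read -0.15, 1.15, 1.39 and 1.45, muscle -1.08, -0.07, 0.17 and -1.51, and hypothalamus -0.29, -0.82, -1.11 and -0.87. Liver read -2.42, -3.47, -1.0 and -0.90. The lowest fat array lay among muscle arrays, and the other 3 fat arrays lay above every array of the other chicken tissues. Fat exceeded the mean of the other 3 tissues by 2.07 (SE 0.45), a fold of 4.21, with a limma adjusted p of 0.00571. In this contrast 1.24% of all genes were called. Liver fell below the mean of the other 3 by 1.81 (SE 0.45, limma adjusted p = 0.0156), where 1.99% of all genes were called. This was the second lowest of the 6428 genes in that contrast. Liver and fat did not overlap, and liver minus fat was -2.91 (limma adjusted p = 0.000792, exact permutation p = 0.0286). Of all genes 2.4% were called in this pair, and 2.91% had liver wholly below fat. No other pair was called, though hypothalamus also lay wholly below fat (exact permutation p = 0.0286), as did 3.14% of all genes. Muscle minus fat was -1.58, hypothalamus minus fat -1.73, liver minus muscle -1.33 and liver minus hypothalamus -1.18, with limma adjusted p of 0.234, 0.168, 0.450 and 0.555. The excess in fat was not called without fat replicate 3 (limma adjusted p = 0.0590). The deficit in liver was not called without liver replicate 1 or without liver replicate 2, down to a difference of -1.30.

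Breast muscle showed no excess of FABP3. Its mean was -0.62 ± 0.80 (SD, n = 4), and it differed from the mean of the other 3 tissues by -0.03, with a limma adjusted p of 0.992 where 0.591% of all genes were called. Without muscle replicate 4 and the other doubtful arrays the difference was 0.26 and was not called either. The skeletal muscle list, led by genes such as ACTA1 and TNNT3, was called higher in muscle for 6 of its 7 genes, with a median difference of 2.73. In the fat arrays, where FABP3 had its highest mean, this list read between -3.09 and -1.31. On Tree sparrow liver replicate 1, where the list read 1.58, FABP3 read 0.12, against -1.37 and -1.34 on the other sparrow arrays. Quail liver replicate 2 also read 0.12 for FABP3, with the list at -1.66. What part muscle cells had in the FABP3 readings was not tested.

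The fibroblast and matrix list, which holds collagens and SPARC, was high in the fat arrays, where FABP4, RBP7 and FABP3 had their highest means. It read 0.14, 0.37, 1.73 and 0.98 in the fat arrays and between -2.15 and -1.05 in the liver arrays. In fat 5 of its 7 genes were called higher than in the other tissues, with a median difference of 2.08. The adipocyte list was called higher in fat for 4 of 6 genes, with a median of 1.37. The part of matrix cells in the readings of FABP3, FABP4 and RBP7 in fat was not tested.

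**Figure D4:**
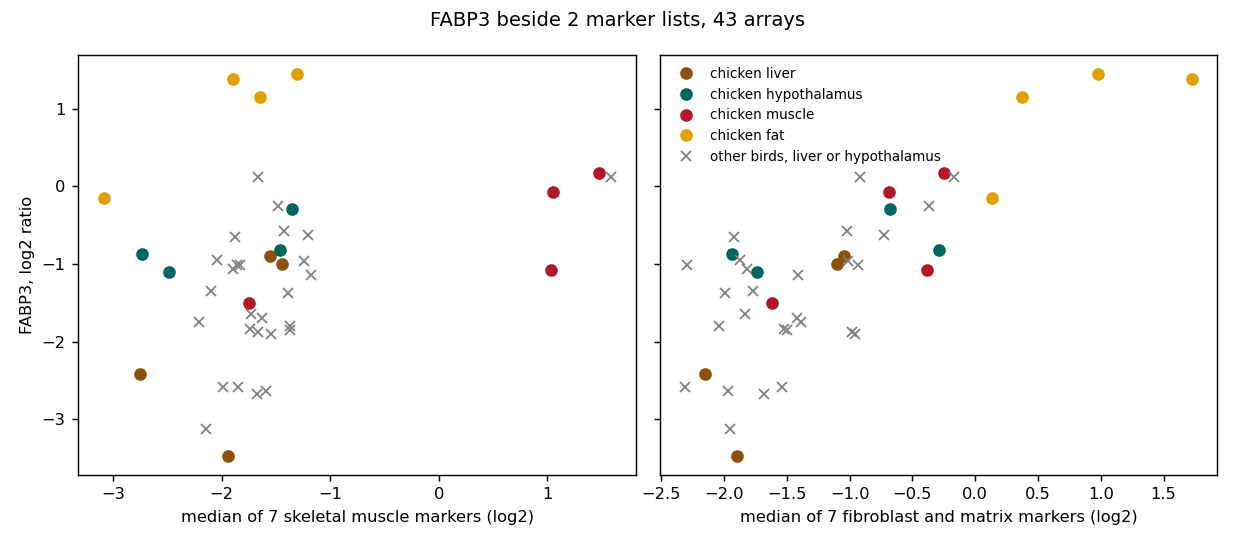
Log2 ratio of FABP3 against the array median of 7 skeletal muscle markers (left) and of 7 fibroblast and matrix markers (right) on 43 arrays; circles are chicken tissues and crosses other birds. On the left the chicken fat arrays other than replicate 1 are high in FABP3 at low muscle markers, and on the right they lie at the upper end of both axes. Fat replicate 1 read -0.15 for FABP3, within the range of the chicken muscle arrays.

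In the livers of the other birds FABP3 had means below 0, from kestrel at -2.32 ± 0.54 to sparrow at -0.86 ± 0.86 (SD, n = 3 each). Turkey liver read -1.90, -1.85, -1.80 and -1.84, with an SD of 0.04, the smallest of the 5 genes in any group, and kestrel liver read -1.70, -2.67 and -2.58. Duck liver lay between -1.75 and -0.94. Quail liver spread from -3.13 to 0.12, with the highest value on replicate 2, the array with the lowest LBFABP of the group. Sparrow liver exceeded chicken liver by 1.09, which was not called (limma adjusted p = 0.778), and its highest array is the doubtful replicate 1. Liver minus hypothalamus was -1.18 in chicken, -0.66 in turkey, -1.06 in quail and 0.04 in duck, and was called in none of them, with limma adjusted p of 0.555 to 0.996. The quail value was -1.67 without quail liver replicate 2, and the duck value 0.44 without the 3 doubtful arrays.

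**Figure D5:**
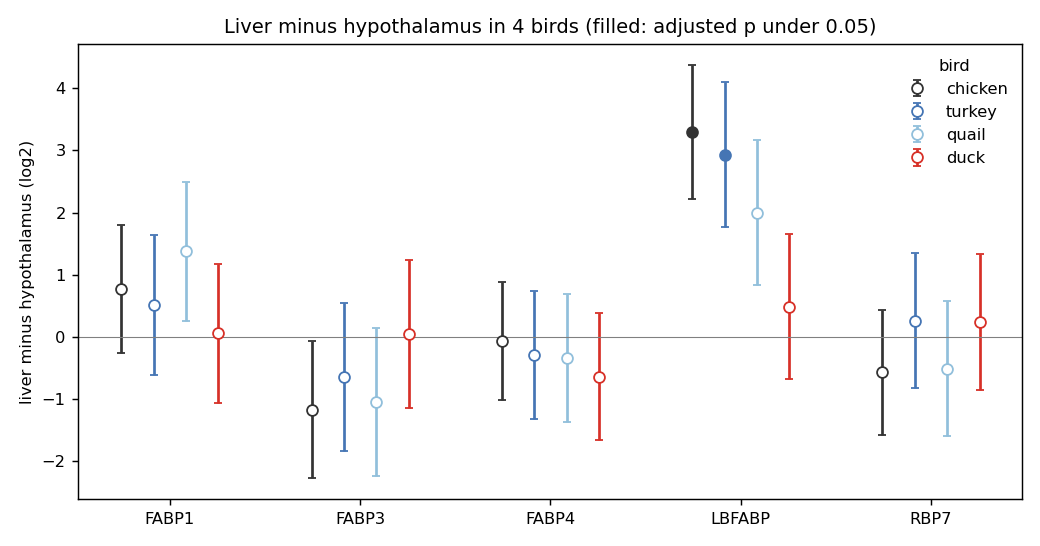
Liver minus hypothalamus of the 5 genes in chicken, turkey, quail and duck, as differences of log2 ratios with 95% intervals from limma; filled points had an adjusted p under 0.05. LBFABP is called in chicken (3.30) and turkey (2.93), is 2.00 in quail and 0.48 in duck, and the other genes are not called in any of the birds.

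Over the 24 contrasts and 5 genes, 17 of 120 differences were called, where 0.721% of the differences of all genes were. LBFABP held 8 of them, FABP4 4, FABP3 3, RBP7 2 and FABP1 0. The contrasts share arrays, and the members were chosen with earlier results of these data known, so these counts do not test the family. All calls between birds, and the call within turkey, were of LBFABP. Chicken hypothalamus against the rest and chicken hypothalamus minus muscle, where 0.482% and 0.233% of all genes were called, called 0 members by limma, with 2 of 10 differences at an unadjusted p under 0.05. That unadjusted threshold was passed by 8.07% and 8.35% of all genes. Between the hypothalamus of another bird and of chicken limma called 0 of 15 differences of the members, and 0 passed an unadjusted p under 0.05, where 0.14% of genes were called for turkey, 0.0467% for quail and 0.327% for duck.

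The genes whose pattern over the 43 arrays was most like that of each member were named by Pearson correlation. This is a description over arrays that share groups and have reference pools of the same tissues. For LBFABP these were EFR3A and PSPH at 0.84, EPHX1L and A2M at 0.83 and CYP39A1, an enzyme of oxysterol metabolism, at 0.82. For FABP4 they were CPSF3 at 0.84, COL1A2 at 0.83, DDHD1 at 0.82, ACSL1 at 0.80 and RETSAT at 0.79. For FABP3 they were SPARC at 0.81, BIN1 at 0.80, GSN at 0.79, and COL3A1 and MGP at 0.78. COL1A2, SPARC, COL3A1 and MGP are genes of the matrix list. FABP1 was most like SPP2 at 0.73, LOC423629 at 0.70, CFI at 0.66, and DPYS and PRDM10 at 0.64. RBP7 was most like NDUFS7 at 0.69, CTSC and ITM2A at 0.68, and TMEM119 and NENF at 0.65. Among the members, FABP3 and FABP4 correlated at 0.62, FABP3 and RBP7 at 0.54, FABP4 and RBP7 at 0.50, and FABP3 and LBFABP at -0.40.

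Of 15 other genes of the intracellular lipid binding family that were listed, 1 was measured. This was FABP5, the epidermal-type carrier, which had chicken means between -0.42 ± 0.50 in liver and 0.03 ± 0.58 in fat (SD, n = 4 each) and was called by limma in 0 of the 4 contrasts of a chicken tissue with the rest, with 0 at an unadjusted p under 0.05. In the RefSeq gene table of the current chicken assembly FABP4 lies between FABP9 and IMPA1, FABP1 between SMYD1 and THNSL2, and FABP3 between ZCCHC17 and SERINC2. The gene span of LBFABP overlaps those of GRHL3 and MYOM3, and that of RBP7 overlaps LZIC, and the sources used here do not say from which strand or end of a transcript the spotted clones come.

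The steps before and after the carriers in fatty acid handling were read with the same contrasts. Of 18 genes of fatty acid uptake and activation, 12 were measured, and 2 were called higher in fat than in the other chicken tissues, where 1.18% of all genes were called higher. ACSL1, which joins fatty acids to coenzyme A, was higher by 2.52 (limma adjusted p = 5.25e-05), and the membrane fatty acid receptor CD36 by 0.99 (0.0251). The median of the 12 was 0.03, against -0.03 over all genes. Of 18 genes of fatty acid sensing receptors and lipid droplets, 14 were measured and 5 were called higher in fat, against the same 1.18% of all genes, with a median of 0.18. They were DGAT2, the last enzyme of triglyceride synthesis, by 1.75, the droplet coat protein PLIN1 by 1.96, the lipase inhibitor G0S2 by 2.13, the triglyceride lipase PNPLA2 by 1.59, and PNPLA3 by 0.96. CD36, DGAT2, PLIN1 and G0S2 also stand in the adipocyte list. In liver, hypothalamus and muscle limma called 0 of 78 differences of these lists from the other tissues. Of the 78, 13 passed an unadjusted p under 0.05, a larger share than the 7.3% over all genes. The other tissues include fat in each of these contrasts.

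Acyl-CoA and sterol carriers and the genes of mitochondrial entry had 6 of 14 genes measured and 0 called by limma in the 4 chicken tissues, with 2 of 24 differences at an unadjusted p under 0.05. That unadjusted threshold was passed by 6.58% to 8.07% of all genes in these contrasts. SCP2, a sterol carrier, was lower in kestrel liver than in chicken liver, with a difference of -1.45 and a limma adjusted p of 0.0423. Of 18 genes of retinoid handling, the pathway of RBP7, 10 were measured. RETSAT, a retinol saturase, was higher in fat by 2.93 (limma adjusted p = 9.01e-06) and differed in muscle by -1.55 (0.0487). TTR, a plasma carrier that holds the retinol binding protein in blood, was higher in liver by 2.85 (1.44e-05), and turkey liver exceeded turkey hypothalamus by 2.20 (0.0406). TTR differed between kestrel and chicken liver by -2.59, with a limma adjusted p of 0.00620. TTR also stands in the hepatocyte list.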

How the data were processed

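Two-colour chicken cDNA arrays were read for 43 tissue samples in 12 groups of species and tissue. The authors deposited 1 linear ratio for each spot and array, and 25 micrograms of RNA were labelled for each sample, per the labels' protocols. Muscle and fat RNA were purified on CsCl gradients and the other RNA on columns, per the labels. No source names the scanner, the background correction, the normalization or the numerator of the ratio. Sample over reference is the likely direction, since hepatocyte, neuron and skeletal muscle markers lay above 0 in the medians of their own chicken tissues. Spot intensities were not used here, so depth of signal is unknown, and precision is limited by how many arrays a group has. The median ratio of an array lay between 0.535 and 1.83, with 0 empty cells. Dyes were not swapped, and a fresh reference pool was made for each set of hybridisations.

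The deposited ratios were put on the log2 scale and centred on each array's median. Spots were averaged to 18547 clones and clones to 6428 genes, from the 10601 spots with 1 gene symbol; 8599 spots were unnamed here. Of the named spots 10455 matched the RefSeq chicken gene table. A mean for each group was fitted over the 43 arrays with limma 3.58.1 under R 4.3.3, followed by eBayes and by Benjamini-Hochberg adjustment within a contrast. The fit was tested on simulated data. Exact permutation tests were two-sided. They used numpy 2.4.6, pandas 2.3.3 and scipy 1.17.1 under Python 3.11.15, and matplotlib 3.10.9 made the plots. Named genes were the 5 members, the 5 genes most like each, and at most 4 called genes of a list per contrast, with the fifth lipid droplet gene added after its value was seen. Members and lists were chosen with earlier results of these data known. The quail hypothalamus array whose description gives another replicate number was placed by its title. Alternatives were no centring, scaling, quantile normalization, centring within 48 print blocks, spot medians, the compared groups only, leaving out arrays and a replicate block.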

Additional observations from a re-analysis of the deposited data

How the results depend on the processing

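Of 120 differences, 17 were called as reported, 17 without centring, 15 with arrays scaled to an equal median absolute deviation, 24 after quantile normalization, 20 after centring within print blocks, 17 with spot medians, 18 with the compared groups alone, 17 without the 3 doubtful arrays and 18 with the replicate block. All 17 kept their call except under scaling, which kept 14, and without the 3 arrays, which kept 16, and 0 reversed a call. The cause of the changes below was not tested. With scaling the fall of LBFABP in liver against chicken was -2.71 in duck (adjusted p = 0.0648) and -3.03 in kestrel (0.0639), and its excess in turkey liver over hypothalamus was 2.86 (0.121), all no longer called. Centring within print blocks called LBFABP in quail liver over hypothalamus, at 2.36 (0.00817), and its smaller difference in duck than in chicken, at -3.26 (0.0481), which quantile normalization also called at -3.13 (0.0364). RBP7 in fat was 1.60 without the 3 arrays, not called. Some other differences not called as reported were called by limma in at least 1 alternative, though by leaving out no single array. Their lowest adjusted p was 0.0142 for FABP3 in hypothalamus minus fat, 0.0450 for FABP3 in muscle minus fat and 0.0382 for RBP7 in muscle minus fat. For FABP4 against the other 3 chicken tissues it was 0.00268 in liver and 0.0448 in hypothalamus.

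Leaving out 1 array at a time gave 1.90 to 2.44 for FABP3 in fat, -2.15 to -1.30 for FABP3 in liver, 1.35 to 1.93 for RBP7 in fat and -2.22 to -1.62 for RBP7 in liver minus fat. It gave LBFABP differences from chicken liver of -2.74 to -2.05 in duck, -3.26 to -2.49 in kestrel and -0.28 to 0.41 in turkey, and liver minus hypothalamus of 1.60 to 2.57 in quail and 2.56 to 3.16 in turkey. The liver minus hypothalamus value of LBFABP in turkey less that in chicken ran from -0.80 to 0.075. Uncalled values that changed sign in these refits were FABP1 in duck liver minus hypothalamus (-0.41 to 0.37), FABP3 in muscle (-0.30 to 0.26) and in duck liver minus hypothalamus (-0.57 to 0.44), FABP4 in chicken (-0.37 to 0.22) and turkey (-0.70 to 0.16) liver minus hypothalamus, and RBP7 in hypothalamus (-0.40 to 0.13) and in duck (-0.063 to 0.72) and turkey (-0.11 to 0.49) liver minus hypothalamus. Over all 120 differences, 5 changed sign without centring, 13 with scaling, 9 with quantiles, 1 within blocks and 3 without the 3 arrays, 0 of them called, with reported sizes of at most 0.42. Among the chicken tissues against the rest, liver minus hypothalamus and the LBFABP differences between birds these were, for liver minus hypothalamus, FABP1 in duck (-0.26 scaled, -0.41 without 3 arrays), FABP3 in duck (-0.45 within blocks, -0.15 scaled, -0.0026 with quantiles), FABP4 in chicken (0.11 not centred, 0.64 scaled) and FABP4 in quail (0.20 scaled), and FABP3 in muscle against the other tissues (0.12 not centred, 0.26 without 3 arrays). Without centring, all genes shifted by -0.18 between quail and chicken liver and by less in the other contrasts checked.

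The data do not settle whether replicate numbers pair the arrays. Deviations of arrays with the same number in different groups had a median correlation of 0.03, from -0.70 to 0.71. Of 219 such pairs 95 exceeded 0.1, and no such count was made for pairs with different numbers. The median was -0.006 for arrays of different groups and numbers. Of the 43 arrays, 16 were closest to one with their own number. Pairs from different groups numbered 219 with the same number and 627 with different numbers, so some arrays would be so without any pairing. With the replicate block 18 differences were called, among them the deficit of FABP4 in muscle, -1.47. Each gene except FABP4 rests on 1 spot, and no intensities tell whether low values lie near background.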
